A study of Mus musculus with 14 samples.

Results

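The 4 libraries described here are the ChIP-BS-seq libraries of XEN cells, 2 replicates for each of 2 histone marks, and they make up 4 of the 14 samples of the series. The rule that picks them uses the sample labels and the kind of file, and no measured value. XEN cells are cells directed towards extraembryonic endoderm, the lineage of the yolk sac. They were derived here from R1, a male mouse embryonic stem cell (ESC) line used at passages 20 to 23, which had been kept in medium with serum, LIF and 2 kinase inhibitors (2i). For XEN differentiation the cells were grown for 9 days in RPMI medium with serum, retinoic acid at 0.1 µM and Activin A at 10 ng/mL. 2 other states of the same line served for orientation, each with 1 library per mark: ESCs after 2 days without 2i, and cells after 4 days with 1 µM retinoic acid and no LIF, called RA cells below. The study repeated the experiment in XEN cells because RA treatment gives a mixture of fates, and it asked whether a longer and more direct differentiation changes how far the 2 marks differ in DNA methylation.

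In ChIP-BS-seq, chromatin is cut with micrococcal nuclease, nucleosomes that carry a histone mark are precipitated, and their DNA is treated with bisulfite, so that the methylation of each CpG (5mC) is read only on the molecules that carried the mark. H3K4me1 is found at enhancers, active or not, and on the flanks of promoters. H3K27ac is found at active enhancers and active promoters, whose CpG-rich centres are usually free of 5mC. The XEN files give, for each 200-bp bin of the genome, the number of unmethylated and of methylated CpG reads, here summed as CpG counts. The 5mC of a bin is the methylated share of these counts.

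Sample labels and file names disagree on which mark each XEN library holds. Both libraries whose title and antibody field say H3K4me1 come in files named for H3K27ac, and both labelled H3K27ac come in files named for H3K4me1, with the same replicate numbers. In ESCs and RA cells labels and file names give the same marks. The groups below follow the labels, and each group is called by its label. If the file names are right, every direction between the marks turns round.

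The counts themselves went with the file names, measured against the RA libraries. Across the 880221 bins with at least 30 counts in any ESC, RA or XEN library, the counts of the 2 libraries labelled H3K4me1 had a Spearman correlation of 0.629 and 0.643 with RA H3K27ac, and of 0.30 and 0.30 with RA H3K4me1. For the 2 libraries labelled H3K27ac the order was the other way, 0.716 and 0.75 with RA H3K4me1 and 0.467 and 0.462 with RA H3K27ac. These correlations are across bins of 1 library each, which share CpG density and mappability. The same comparison was made in bins that only 1 mark enriched in RA cells, defined as at least 30 counts and at least 4-fold more counts per library total than the other mark. The 53256 RA H3K27ac bins held 24.2% and 22.7% of the counts labelled H3K4me1, and 2.16% and 1.94% of those labelled H3K27ac. For the 107797 RA H3K4me1 bins the shares were 2.93% and 2.98% against 10.1% and 10.3%. Against the ESC libraries the same correlations were weak, at most 0.244. Which of the 2 records is in error cannot be told from the counts of these cells alone, since no XEN library of undisputed mark was at hand.

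Whether the cells are extraembryonic endoderm was not checked against marker genes. The bins were not paired with genes of their genome build (mm9), and no RNA of XEN cells was used. The depth was 12147115 and 15698181 CpG counts in the 2 libraries labelled H3K4me1 and 22746494 and 31345707 in those labelled H3K27ac, so the group with the deeper libraries is always the one labelled H3K27ac. Mitochondrial DNA, which lacks CpG methylation, read as 0% to 0.242% methylated in XEN cells, and in the libraries used for orientation as 0.383% (ESC H3K4me1), 3.55% (ESC H3K27ac), 3.23% (RA H3K4me1) and 6.44% (RA H3K27ac). The variance of the 5mC difference between replicates was 1.24 and 1.31 times the binomial one. The labels do not say whether replicates came from separate cultures, so p-values measure the spread between these libraries, which may be technical. The binomial intervals below treat each bin as an independent trial and do not cover the spread between libraries. Neighbouring bins, CpGs of 1 read and PCR copies are not independent.

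Coverage was spread in opposite ways in the 2 groups. With the label H3K27ac, many bins were covered to a moderate depth, and with the label H3K4me1 a small number of bins took very many counts. The files list bins from 4 counts on, 1173509 and 1493402 of them for the label H3K4me1 and 1453984 and 1831848 for the label H3K27ac. The minimum of 30 counts used in the study was reached by 47271 and 61030 bins (4.03% and 4.09% of those listed) in the libraries labelled H3K4me1, and by 190465 and 279093 bins (13.1% and 15.2%) in those labelled H3K27ac. The group means were 4.06% ± 0.0413 and 14.2% ± 1.51 (SD, n = 2 libraries each), and the groups did not overlap. An exact two-sided permutation test gave p = 0.333, the smallest value that 2 libraries against 2 allow, which is also the p of each value per library below in which the groups do not overlap.

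As deposited, the libraries labelled H3K27ac had more bins at 60 counts, 47670 and 81974 against 15771 and 20481, and at 100 counts, 10112 and 20765 against 6918 and 9349. At equal library totals the numbers of bins came together at 30 counts and the order turned round above it. After each library was thinned at random to 12147115 counts, 47271 and 41127 bins reached 30 counts with the label H3K4me1, and 58953 and 47518 with the label H3K27ac. At 100 counts the thinned libraries had 6918 and 6297 bins against 667 and 361. More than 1000 counts were found as deposited in 177 and 203 bins labelled H3K4me1, against 10 and 15 labelled H3K27ac. The 1000 deepest bins held 6.31% and 5.47% of all counts with the label H3K4me1, and 1.32% and 1.32% with the label H3K27ac. The single deepest bin held between 24377 and 51510 counts in the 4 libraries.

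**Figure D1:**
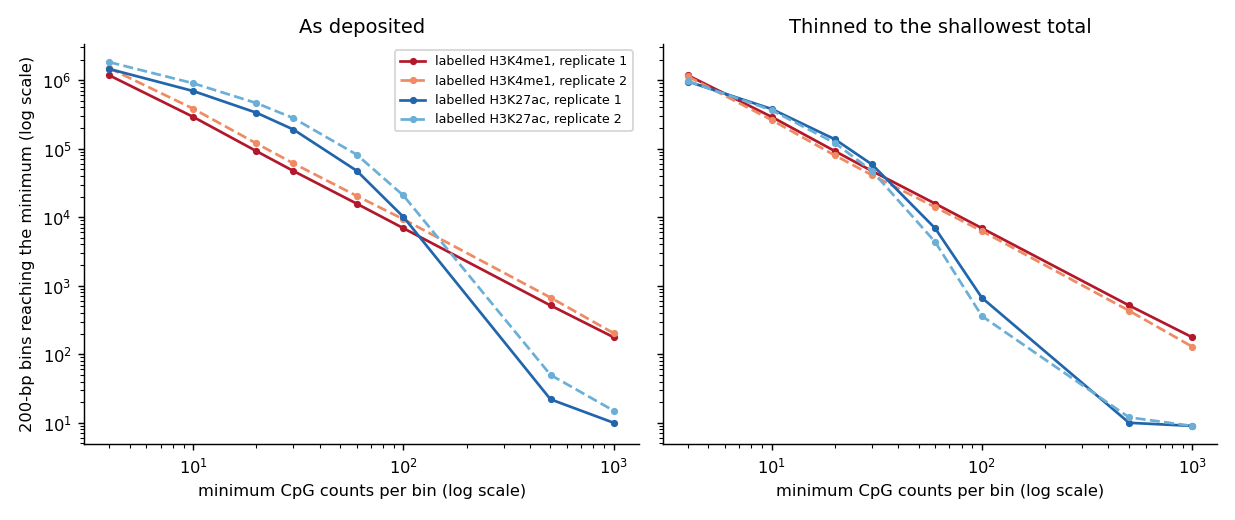
Number of 200-bp bins that reached a minimum number of CpG counts in each of the 4 XEN libraries, both axes on a log scale, as deposited (left) and after thinning to the shallowest library (right). As deposited, more bins labelled H3K27ac (blue) reached 30 counts, and in both panels more bins labelled H3K4me1 (red) exceeded 1000, 177 and 203 against 10 and 15 before thinning.

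Bin by bin, edgeR's quasi-likelihood test with Benjamini-Hochberg adjustment was run on the 199606 bins with at least 30 counts in at least 2 libraries, with TMM scaling. Coverage was higher with the label H3K4me1 in 35514 bins, which is 17.8% of the bins tested, and higher with the label H3K27ac in 16628 bins, which is 8.33%. The split depended on the scaling: with library totals and no TMM, 27019 and 79710 bins were called, and the median log2 fold over all bins was 0.99 in place of 0.14. It also depended on the minimum, since from 10 counts on 57859 bins were higher with the label H3K4me1 and 115217 with the label H3K27ac. With the replicate number as a block the counts were 24958 and 1349. A bin that a file does not list was entered as 0 and taken to hold at most 3 counts, because listed bins start at 4, but whether bins were left out for another reason is not known. With such bins set to 3 counts, 43537 bins were called higher with the label H3K4me1 and 32484 with the label H3K27ac. The count of 16628 fell to 708 or 664 when either library labelled H3K27ac was left out, and rose to 30836 without replicate 2 labelled H3K4me1.

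A bin with under 30 counts in both libraries of a group entered the test only with at least 30 in both libraries of the other. This minimum bounds from below how deep called bins were in the group where they were higher. There the bins called in the 2 directions had similar depths, which were not tested apart from the minimum, and they differed in methylation. Those higher with the label H3K4me1 had medians of 51 and 60 counts in that group against 12 and 16 in the other, and a median log2 fold of -4.06 (labelled H3K27ac over labelled H3K4me1), or -4.12 with unlisted bins at 3 counts. Their pooled 5mC was 6.59% and 6.51% in the libraries labelled H3K4me1 and 30.2% and 30.4% in those labelled H3K27ac. Bins higher with the label H3K27ac had medians of 51 and 64 counts in that group, and 46.3% of them were not listed in either library labelled H3K4me1. For these the median log2 fold was 3.09, or 1.82 with unlisted bins at 3 counts, and pooled 5mC was 54.9% and 54.9% with the label H3K27ac and 58.3% and 58.3% with the label H3K4me1.

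RA cells, which the test did not use, separated the same bins by mark. Of the bins higher with the label H3K4me1, 94.1% had more RA H3K27ac than RA H3K4me1 counts per library total, against 33.3% of all bins tested, and in ESCs this share was 82.8% against 38.0%. Among bins higher with the label H3K27ac it was 7.78% in RA cells and 21.2% in ESCs. Most bins of both directions lay in peaks of both RA marks, 71.0% of those higher with the label H3K4me1 and 70.7% of those higher with the label H3K27ac, both less than the 85.1% of all bins tested. Peaks of a single mark differed between the directions. A peak of RA H3K27ac alone covered 28.4% of the bins higher with the label H3K4me1 and 0.475% of those higher with the label H3K27ac, against 5.45% of all bins tested. For a peak of RA H3K4me1 alone the shares were 0.191% and 24.5%, against 8.13%.

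The bins with the largest folds illustrate the 2 extremes (mm9 coordinates). On chr11:59623401-59623600, 3317 and 2840 counts were found with the label H3K4me1 and neither library labelled H3K27ac listed the bin, which makes it at least 1995-fold higher on library totals and at least 3567-fold with TMM scaling, provided that an unlisted library held no more than 3 counts there (edgeR adjusted p = 0.000525). It was almost free of 5mC, at 0.181% and 0.246%. In ESCs and RA cells the same bin had 517 and 588 H3K27ac counts, and 13 and 6 H3K4me1 counts. The bins chr11:3102401-3102600 and chr4:125933601-125933800 followed, with 2117 and 2233 counts and with 1886 and 1971 counts, again unlisted in the other group and below 0.4% methylated. Both had between 321 and 509 counts of H3K27ac in ESCs and RA cells, and at most 20 of H3K4me1.

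In the other direction the bins were shallower and partly methylated. The bin chr6:88140401-88140600 had 138 and 155 counts with the label H3K27ac and was not listed with the label H3K4me1, at least 25.1-fold higher on library totals and at least 14.0-fold with TMM scaling under the same condition (edgeR adjusted p = 0.00084), and its 5mC was 16.7% and 14.2%. Next came chr14:122876601-122876800 with 128 and 148 counts at 13.3% and 11.5% 5mC, and chr3:69122201-69122400 with 124 and 148 counts at 24.2% and 27.7%. In RA cells these 3 bins had 109, 160 and 156 counts of H3K4me1, and 77, 15 and 57 of H3K27ac, in libraries of 47177841 and 32305709 counts, so that per library total H3K27ac was the lower mark in the last 2 bins but not in the first. The coverage calls of all 6 bins are subject to the dispute between labels and file names.

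DNA methylation was distributed in 2 different shapes. Covered bins labelled H3K4me1 were mostly unmethylated with a flat tail, while covered bins labelled H3K27ac formed 1 broad hill at high 5mC. Over all listed bins the pooled 5mC was 47.9% and 49.2% with the label H3K4me1 and 61.5% and 61.5% with the label H3K27ac, means of 48.5% ± 0.940 and 61.5% ± 0.0219 (SD, n = 2 each). In bins with at least 30 counts, the median was 2.17% and 3.33% against 64.7% and 64.7%. The mean over these bins was 21.3% and 25.1% with the label H3K4me1, and 58.5% and 58.4% with the label H3K27ac. In both comparisons the groups were apart by far more than their replicates (exact permutation p = 0.333, the smallest possible).

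**Figure D2:**
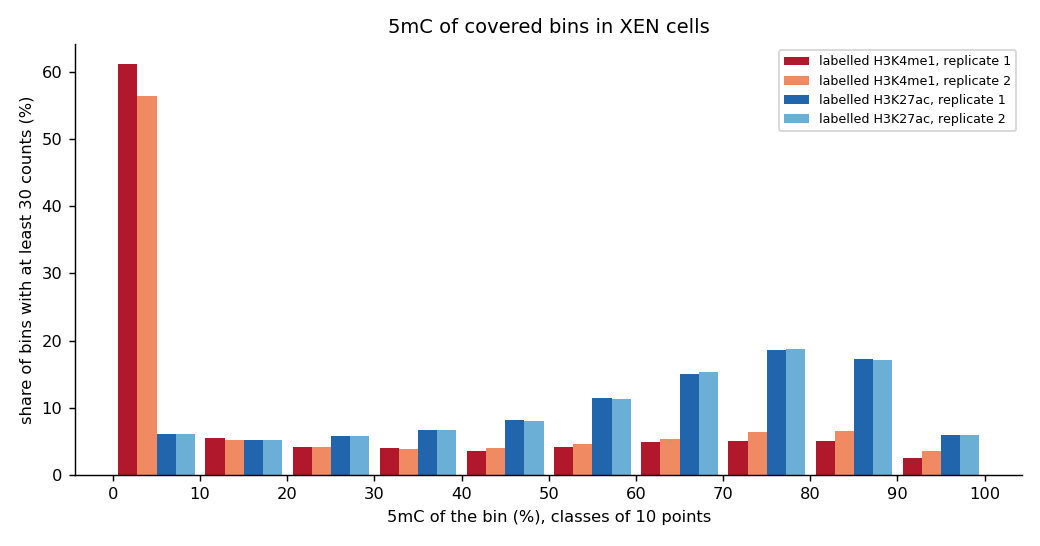
Share of bins (y axis, %) in each class of 10 points of 5mC (x axis, %) among bins with at least 30 counts, 1 bar per XEN library. The lowest class holds 61.1% and 56.5% of the bins labelled H3K4me1 and 6.05% and 6.15% of those labelled H3K27ac, whose highest bars, 18.6% and 18.7%, are at 70% to 80% 5mC.

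Unmethylated bins (UMRs, under 20% 5mC) made up 66.6% (95% exact binomial interval 66.2% to 67.0%) and 61.6% (61.2% to 62.0%) of the covered bins labelled H3K4me1. They were 11.3% (11.2% to 11.4%) and 11.3% (11.2% to 11.4%) of those labelled H3K27ac. The group means were 64.1% ± 3.54 and 11.3% ± 0.0223 (SD, n = 2 each). Since more bins were covered with the label H3K27ac, the numbers of UMR bins were closer than their shares, 31475 and 37579 against 21516 and 31616. Bins with no methylated count at all were 39.9% and 35.8% of covered bins with the label H3K4me1, and 1.44% and 1.47% with the label H3K27ac. At the other end, bins at 80% 5mC or more made up 7.66% and 10.1% against 23.1% and 23.0%. Intermediate bins, from 20% to 80%, were 25.8% and 28.3% against 65.6% and 65.7%.

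The 2 shapes were a matter of the deep bins. In bins with 4 to 9 counts the 4 libraries were alike, with a pooled 5mC of 66.1% and 65.9% for the label H3K4me1 and 67.0% and 67.1% for the label H3K27ac, and with UMR shares between 6.73% and 7.62%. With growing depth the libraries labelled H3K4me1 fell steadily, to 27.3% and 32.4% at 30 to 59 counts, 9.10% and 11.1% at 60 to 99, and 5.23% and 5.12% at 100 or more. In the libraries labelled H3K27ac 5mC stayed between 58.0% and 64.2% in every class from 10 counts on. At 100 or more counts 96.1% and 95.7% of bins labelled H3K4me1 were UMRs, against 4.58% and 5.88% of those labelled H3K27ac. The median difference between the groups therefore depended on the minimum, and was 0 points at 4 counts, 3.13 at 10, 37.9 at 20 and 64.6 at 60. With library totals thinned to the same number it was 62.8 points at 30 counts.

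**Figure D3:**
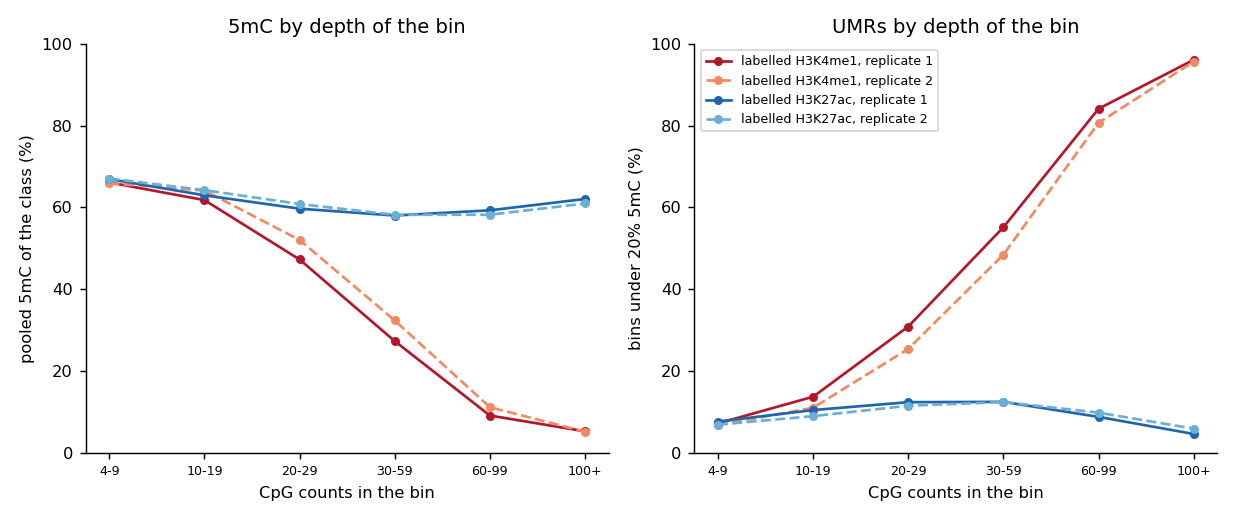
Pooled 5mC (left, %) and share of bins under 20% 5mC (right, %) by the number of CpG counts in the bin, for each XEN library. All 4 libraries start near 66% to 67% at 4 to 9 counts, and at 100 or more the libraries labelled H3K4me1 reach 5.23% and 5.12% while those labelled H3K27ac are at 62.1% and 61.0%.

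UMRs of 1 library were compared with the other library of the same label. Of 39064 bins covered in both libraries labelled H3K4me1, 28493 were a UMR in at least 1, and 27150 (95.3%) of these in both. Of 172069 bins covered in both libraries labelled H3K27ac, 21065 were a UMR in at least 1, and 14198 (67.4%) in both. UMRs in both replicates were 69.5% of all bins covered in both with the label H3K4me1, and 8.25% with the label H3K27ac. In the 14551 bins covered in all 4 libraries, both libraries labelled H3K4me1 had a UMR in 3671, with 4307 and 4175 in each. With the label H3K27ac it was 2813, with 3290 and 3274 in each, so the labels were closer there. The replicated UMRs had medians of 60 and 72 counts with the label H3K4me1 and of 43 and 52 with the label H3K27ac. The part of depth and of these shares in the 2 rates was not tested. Neighbouring UMR bins joined into runs of 5 bins or more mainly with the label H3K4me1, where 1106 of 12466 runs had 5 bins or more and 44.9% were single bins. Among the 11485 runs labelled H3K27ac, 49 had 5 bins or more and 82.4% were single bins, although the longest run was found there, 30 bins against 19.

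Most replicated UMRs of 1 group did not reach 30 counts in both libraries of the other, so they could not be compared at this minimum. In the libraries labelled H3K27ac the replicated UMRs labelled H3K4me1 had medians of 8 and 10 counts. Of these UMRs, 3671 (13.5%) had 30 counts in both libraries labelled H3K27ac, and 15.8% were listed in neither. Among all 39064 bins covered in both libraries labelled H3K4me1, 14551 had 30 counts in both labelled H3K27ac, a larger share. Of those 3671 bins, 2658 (72.4%) were UMRs in all 4 libraries. In the other direction 2813 (19.8%) of the UMRs labelled H3K27ac were covered in both libraries labelled H3K4me1, and the same 2658 bins (94.5%) were UMRs there. Of all 172069 bins covered in both libraries labelled H3K27ac, 14551 were covered in both labelled H3K4me1, a smaller share than among the UMRs.

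In ESCs and RA cells most XEN UMRs were low as well, where covered. RA H3K27ac covered 27010 of the 27150 UMRs labelled H3K4me1 with at least 30 counts, and 99.1% of these were UMRs there, while RA H3K4me1 covered 7748, with 89.9% UMRs. The 14198 UMRs labelled H3K27ac were covered more often by RA H3K4me1 (11999 bins, 91.1% UMRs) than by RA H3K27ac (9510 bins, 97.0% UMRs). Over the genome RA H3K4me1 also covered more bins, 405939 against 154229, of which 16.9% and 61.6% were UMRs. In ESCs 88.7% (H3K4me1) and 99.5% (H3K27ac) of the covered UMRs labelled H3K4me1 were UMRs, and 86.8% and 98.3% of those labelled H3K27ac. Over all covered ESC bins the UMR shares were 35.1% and 81.8%. Bins over 50% 5mC in RA cells were at most 0.310% in any of these sets, and in ESCs at most 2.39%. Over all covered bins they were 53.3% (H3K4me1) and 19.1% (H3K27ac) in RA cells, and 21.1% and 4.21% in ESCs.

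Of the 3 longest runs that were UMRs in all 4 libraries, 2 lay close to each other. A run of 19 bins at chr17:39982001-39985800 had 2602 and 3435 counts at 1.92% and 2.30% 5mC with the label H3K4me1, and 4032 and 6719 counts at 3.12% and 3.42% with the label H3K27ac. A second run of 9 bins, chr17:39980001-39981800, was at 2.23% and 2.43% against 3.58% and 3.26%. The third, 7 bins at chr19:23210201-23211600, was at 2.17% and 2.53% against 3.28% and 4.74%. All 3 runs were also below 7% in ESCs and RA cells with either mark, and in each run both libraries labelled H3K27ac were above both labelled H3K4me1.

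Around unmethylated cores the 2 groups had different profiles. Cores were taken from the other cell states, as the 10388 autosomal bins (8574 separate runs) with at least 30 counts and under 10% 5mC in all 4 ESC and RA libraries. At the core itself, 5mC in XEN cells was 3.44% and 3.61% with the label H3K4me1 and 9.79% and 9.67% with the label H3K27ac. At 400 bp it was 4.22% and 4.14% against 33.3% and 33.4%, and at 1000 bp 8.78% and 8.98% against 48.7% and 48.3%. The 2 groups approached each other only at some distance, with 60.1% and 61.1% against 63.8% and 64.0% at 5000 bp. Coverage was 27.5 and 24.4 counts per bin per 10000000 CpG counts of the library at the core with the label H3K4me1 against 13.3 and 12.5, and at 5000 bp 2.33 and 2.27 against 3.22 and 3.08. Replicates followed each other closely over the whole distance, so that the unmethylated zone was wider with the label H3K4me1 in both replicates. In the other cell states the wider zone was that of H3K27ac, with 1.90% 5mC at 400 bp against 10.2% for H3K4me1 in ESCs, and 4.11% against 23.4% in RA cells. By the labels XEN cells thus had the opposite order of marks around the cores, and by the file names the same. The cores were selected by counts and low 5mC in the ESC and RA libraries themselves, and bins next to a core are those that missed these limits. The part of this selection in the order seen in ESCs and RA cells was not tested. XEN libraries were not used to select the cores.

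**Figure D4:**
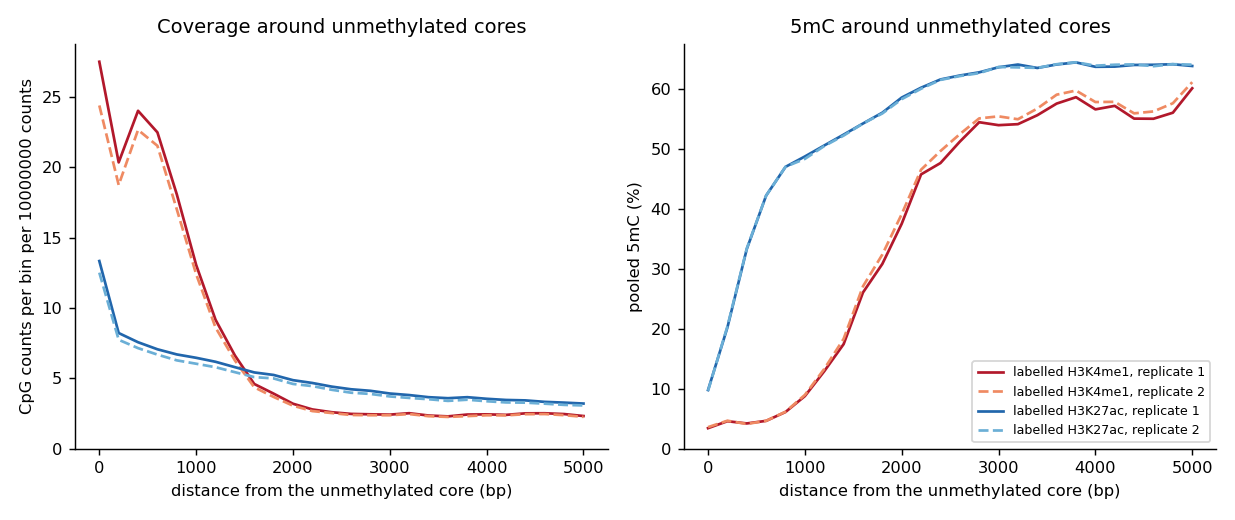
CpG counts per bin per 10000000 counts of the library (left) and pooled 5mC (right, %) by distance in bp from unmethylated cores defined in ESCs and RA cells, for the 4 XEN libraries. At 1000 bp 5mC is 8.78% and 8.98% with the label H3K4me1 and 48.7% and 48.3% with the label H3K27ac.

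Peaks called in RA cells sorted the XEN counts by mark again. Bins in peaks of both RA marks held 55.5% and 52.1% of the counts labelled H3K4me1 and 70.2% and 67.2% of those labelled H3K27ac. In peaks of RA H3K27ac alone lay 17.3% and 16.6% against 2.29% and 2.42%, and in peaks of RA H3K4me1 alone 6.60% and 7.52% against 16.7% and 17.6%. Covered bins labelled H3K4me1 in peaks of RA H3K27ac alone were UMRs in 95.3% and 92.6% of cases, against 48.0% and 41.3% with the label H3K27ac. In peaks of both marks they were UMRs in 58.2% and 53.3% of cases, against 10.2% and 10.8% with the label H3K27ac.

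The X chromosome was less methylated than the autosomes in every library, and more so with the label H3K4me1. Its pooled 5mC was 37.1% and 39.0% against 48.0% and 49.3% on autosomes with the label H3K4me1, and 57.9% and 58.2% against 61.5% and 61.6% with the label H3K27ac. Of covered X-linked bins labelled H3K4me1, 91.7% and 90.0% were UMRs, against 66.2% and 61.2% of autosomal ones. With the label H3K27ac the shares were 13.4% and 12.4% against 11.3% and 11.3%. X-linked bins were few, 614 and 760 of the covered bins labelled H3K4me1 and 1001 and 2064 of those labelled H3K27ac. For H3K27ac of ESCs and RA cells, 94.9% and 81.8% of covered X-linked bins were UMRs, against 81.5% and 61.1% of autosomal ones. For H3K4me1 the shares were 53.0% and 19.5% against 34.9% and 16.9%. These male cells have a single X, and the part of depth in the X-linked shares was not tested.

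To compare 5mC at the same places, the 14551 bins with at least 30 counts in all 4 libraries were used, of which 98.0% lay in peaks of both marks in RA cells. Here the groups were closer than in the bins that each library covered. Pooled 5mC was 41.4% and 41.8% with the label H3K4me1 and 52.2% and 52.7% with the label H3K27ac, a difference of 10.9 points. Over all bins with 30 counts in the library itself it was 44.3 points, and 13.0 over all listed bins. The median 5mC was 41.4% and 42.1% with the label H3K4me1 and 48.5% and 48.6% with the label H3K27ac. UMRs were 29.6% and 28.7% against 22.6% and 22.5%, and bins at 80% or more 12.1% and 12.5% against 13.6% and 13.3%. Averaged over bins, 5mC was 3.80 to 4.41 points higher with the label H3K27ac in the 4 pairs of libraries with different labels, while replicates differed by 0.565 and 0.0438 points. These bins held between 5.30% and 6.91% of the counts of each library.

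Which replicates agreed more closely depended on the bins compared. Over all bins with at least 30 counts in both replicates, the mean absolute difference in 5mC was 3.59 points with the label H3K4me1 (39064 bins, 69.5% of them UMRs in both) and 7.50 points with the label H3K27ac (172069 bins, 8.25% UMRs in both). In the 14551 shared bins the order was the other way. The mean absolute difference in 5mC was 5.94 points between the 2 libraries labelled H3K27ac, which had medians of 73 and 91 counts per bin, and 7.55 points between those labelled H3K4me1, with medians of 43 and 47 counts. The 4 pairs with different labels were at 7.78 to 8.45 points, so pairs with the same label were closer, but the pair labelled H3K4me1 only slightly so. More than 20 points separated 801 bins (5.50%) between the replicates labelled H3K4me1 and 257 (1.77%) between those labelled H3K27ac, against 840 to 1110 bins (5.77% to 7.63%) for different labels. On average the different-label pairs exceeded the same-label pairs by 1.36 points, and by 1.04 after thinning, where 6367 bins remained. With 4 libraries there are too few pairings to test this. Pearson correlations across bins were 0.939 and 0.960 for the same label and 0.935 to 0.944 for different labels, in bins that share their sequence.

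**Figure D5:**
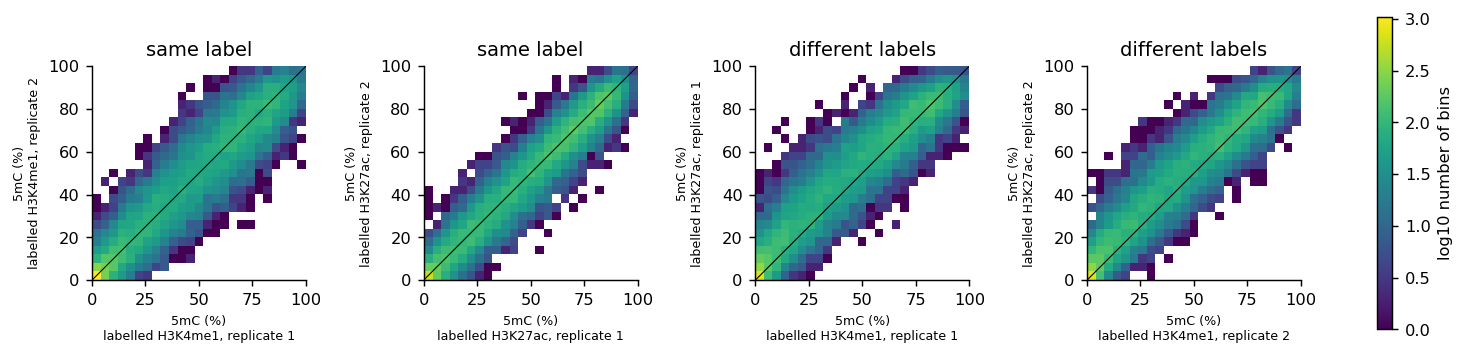
5mC (%) of the 14551 bins covered in all 4 XEN libraries, for 4 pairs of libraries, with the number of bins on a log10 colour scale and the diagonal as a line. The replicates labelled H3K27ac lie closest to the diagonal (mean absolute difference 5.94 points), and in the pairs with different labels more bins lie above it, towards higher 5mC with the label H3K27ac.

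The difference was largest in bins of low to intermediate methylation. By the mean of the 4 libraries, the difference (labelled H3K27ac minus labelled H3K4me1) was 2.35 points in bins under 10%, 5.83 from 10% to 20%, 6.81 from 20% to 40%, 5.75 from 40% to 60% and 2.78 from 60% to 80%. From 80% to 100% it was 0.174 points, and the 4 pairs of libraries ranged from -0.0483 to 0.397 there. In the class from 20% to 40% the 4 pairs ranged from 6.41 to 7.22 points and 80.8% of bins were higher with the label H3K27ac. The classes were set by the same values, so that these are descriptions.

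UMR status in the 14551 bins changed mostly in 1 direction. All 4 libraries had a UMR in 2658 bins (18.3%) and none had one in 9612 (66.1%). In 425 bins (2.92%) both libraries labelled H3K4me1 and neither labelled H3K27ac had a UMR, while the opposite was seen in 23 (0.158%). The remaining bins were mixed, with 1 library of a group differing from the other.

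Bins that differed in 5mC were nearly all higher with the label H3K27ac. In the study a bin is a differentially methylated enhancer (DME) when the marks differ by more than 20 points. The study took such bins in enhancer peaks away from transcription start sites. Here all covered bins were used, with no limit on peaks or start sites. By the means of the replicates, 398 bins were past 20 points with higher 5mC for the label H3K27ac, 2.74% of the 14551, and 14 with higher 5mC for the label H3K4me1, 0.0962%. In 392 (2.69%) and 14 (0.0962%) both libraries of the higher group were also above both of the lower. Over all 14551 bins both libraries labelled H3K27ac were above both others in 35.4%, and both labelled H3K4me1 in 8.33%. The counts rose when a library was left out, to between 555 and 765 and between 27 and 55, since a single library then stood for a group.

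A test that uses the spread between replicates called fewer bins. With edgeR's quasi-likelihood test on the methylated and unmethylated counts (Benjamini-Hochberg adjusted p under 0.05), 185 bins, 1.27% of the 14551, were higher with the label H3K27ac and 2 bins, 0.0137%, with the label H3K4me1. At an unadjusted p under 0.05 there were 1956 bins. With 1 library left out, between 3 and 6 bins higher with the label H3K27ac and 0 with the label H3K4me1 passed, so most calls were lost without any 1 of the 4 libraries. With a minimum of 10 counts in every library, 204 and 3 of 144770 bins were called, and 73 of the 187 bins remained among them, although all 187 were tested. Fisher's exact test on the summed counts, which does not see the spread between replicates, called 756 and 27.

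The 185 bins lay mainly at the border between unmethylated and intermediate. Their median 5mC was 13.2% and 12.3% with the label H3K4me1, and 37.9% and 39.0% with the label H3K27ac, and differences ran from 4.94 to 48.1 points, with 120 past 20 points. In 60 of them (32.4%) both libraries labelled H3K4me1 and neither labelled H3K27ac had a UMR, against 2.92% of all bins compared. The calls rest on the same values, so this larger share follows in part from the selection. They were scattered over all 19 autosomes, in 169 groups more than 10 kb apart, and 17 of them had an adjacent bin that was also called. Of the 185 bins, 180 (97.3%) lay in peaks of both marks in RA cells, as did 98.0% of all bins compared.

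RA libraries, which were not used for the calls, gave 5mC for 176 of the 185 bins with at least 30 counts in both marks. There H3K4me1 was higher than H3K27ac in 157 bins (89.2%), with a median difference of 7.90 points, against 72.8% of the 13090 bins compared that RA cells covered, with a median difference of 4.14 points. Mitochondrial 5mC of the RA libraries was 3.23% for H3K4me1 and 6.44% for H3K27ac, and its part in these values was not tested. More than 20 points were found in 19 of the 176, all with H3K4me1 higher, while among all 13090 H3K4me1 was higher in 526 such bins and H3K27ac in 34. In ESCs 98 of the 185 bins were covered, the median 5mC was 4.14% for H3K4me1 and 3.25% for H3K27ac, and H3K4me1 was higher in 57.1%, against 53.7% of all bins covered. By the labels, RA cells and XEN cells thus had opposite marks with the higher 5mC in these bins, and by the file names the same mark. There was 1 library per mark in ESCs and RA cells, so no test was made there.

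The 5 bins with the largest differences among deeper bins (at least 60 counts in every library) had no gene assigned. The bin chr7:146111401-146111600 was at 10.8% and 19.7% with the label H3K4me1 and at 54.7% and 52.0% with the label H3K27ac, a difference of 38.1 points (edgeR adjusted p = 0.000197), from 65 to 100 counts per library. In ESCs it was at 4.48% for H3K4me1 and 6.15% for H3K27ac, and in RA cells at 19.8% and 13.1%. On chr3:116266001-116266200 5mC was 24.6% and 33.7% against 66.2% and 61.3%, a difference of 34.6 points (edgeR adjusted p = 0.00426). The 2 groups did not overlap in either bin.

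Of the other 3 bins, 2 were UMRs in both libraries labelled H3K4me1. On chr3:51851001-51851200 5mC was 18.3% and 16.5% against 35.6% and 56.6%, so that the replicates labelled H3K27ac were themselves farther apart than the nearer of them was from the other group (28.7 points between means, edgeR adjusted p = 0.00956). The deepest of the 5, chr11:3093201-3093400, was at 6.50% and 9.12% in 1339 and 1459 counts with the label H3K4me1, and at 32.8% and 39.7% in 375 and 468 counts with the label H3K27ac (28.5 points, edgeR adjusted p = 2.34e-22). In RA cells it was at 35.7% for H3K4me1 and 8.68% for H3K27ac. The fifth, chr17:29067601-29067800, was at 26.1% and 35.7% against 62.6% and 53.8% (27.3 points, edgeR adjusted p = 0.0259). Only chr11:3093201-3093400 kept an adjusted p under 0.05 with each library left out in turn.

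In the other direction neither of the 2 bins called among the 14551 had 60 counts in every library. When only the 1489 bins with 60 counts in every library were tested, 1 bin passed in this direction, chr6:3151401-3151600, at 12.0% and 4.03% with the label H3K4me1 and 2.79% and 1.72% with the label H3K27ac (edgeR adjusted p = 0.038, and 0.0889 among the 14551). The 2 bins called at lower depth, named after their values were seen, were chr6:37369801-37370000 and chr10:120943801-120944000. The first was at 96.9% and 98.6% with the label H3K4me1 and at 73.3% and 86.4% with the label H3K27ac, and the second at 88.1% and 81.1% against 62.1% and 59.3% (edgeR adjusted p = 0.0188 and 0.0439). Both had been low in ESCs, where H3K4me1 was at 20.2% and 8.11%. In RA cells they were at 73.6% and 60.8% for H3K4me1, and at 83.0% and 40.3% for H3K27ac.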

How the data were processed

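ChIP-BS-seq was analysed in 4 XEN libraries, with 2 libraries each of ESCs and RA cells for orientation. Reads had been aligned with Bismark and Bowtie to mm9 (build from the submitters' processing notes, versions not given in the sources used here). The authors left out reads with mixed CpG states and deposited raw counts of unmethylated and methylated CpGs per 200-bp bin. XEN titles end in PE, while the study's methods describe single-ended alignment. In XEN files the fourth column was read as unmethylated, since the fifth is nearly empty on mitochondrial DNA, and bins start at 4 counts. The peak lists the authors deposited for ESCs and RA cells, called with HOMER at a peak size of 2500 bp, carry a score per peak that was not used. Bins overlapped a peak from 1 bp on.

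From the counts, 5mC, UMRs (under 20%), covered bins (at least 30 counts) and thinned libraries (seed 1) were computed with Python 3.11.15, numpy 2.4.6 and scipy 1.17.1. Values per library were compared by exact permutation, and bins with edgeR 4.0.16 in R 4.3.3 (DESeq2 1.42.0 as an alternative), tested on simulated data. That these libraries are described together, and the lists used, were decided with earlier results of these data known. Thinning matched library totals only, since bins under 4 counts are not in the files. Bins named were the 5 with the largest 5mC difference per direction (adjusted p under 0.05, 60 counts in each library, no overlap of groups), the 3 with the largest coverage fold per direction (100 counts in both libraries of the higher group) and the 3 longest runs of shared UMRs, autosomal and at most 1 per 10 kb for the bins. Replicate numbers did not pair the libraries. Lists of genes fixed for XEN, pluripotency and other lineages gave no result, since no annotation of mm9 was used here.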

Additional observations from a re-analysis of the deposited data

How the results depend on the processing

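Of the 5 values per library, pooled 5mC, UMR share and covered share kept their direction under each alternative tried. Their sizes moved: pooled 5mC differed by 44.3 points in bins with 30 counts in the library, UMR share by -2.13 at 4 counts, -12.4 at 10, -35.0 at 20, -80.1 at 60 and -6.59 in shared bins, and covered share by 23.3 at 10, 16.2 at 20, 2.52 at 60 and 1.71 after thinning. Permutation p-values cannot pass 0.05 in this design and say nothing of stability. The median difference was 0 points with a minimum of 4 counts, and the difference in bins at 80% 5mC or more turned to -0.714 points at 4 counts and -1.57 at 10, from 14.2 at 30. The cause was not tested.

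Same-label pairs were closer than different-label pairs by 0.908 points at 10 counts. Differentially methylated bins (higher with the label H3K27ac, then H3K4me1) numbered 310 and 6 at 20 counts, 96 and 1 at 60 and 756 and 27 by Fisher's exact test. With 1 library left out they ranged from 3 to 6 and from 0 to 0, the lone library being assumed to vary like the other group. Bins past 20 points numbered 7414 and 1885 at 10 counts, 1300 and 97 at 20, 38 and 0 at 60, and 47 and 0 past 30 points, and ranged from 555 to 765 and from 27 to 55 with 1 library left out.

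Bins higher in coverage with the label H3K27ac numbered 79710 on library totals, 115217 from 10 counts and 8844 from 60, and, in alternatives chosen after seeing the data, 32484 with unlisted bins at 3 counts and 11034 past 4-fold. Higher with the label H3K4me1 were 57859 from 10 counts and 15946 from 60. With 1 library left out the counts ranged from 664 to 30836 and from 25926 to 37464. DESeq2 called 15401 and 35471. Leaving out bins above 1000 counts, also chosen later, moved no count past 1.5 times.

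Same-numbered libraries did not deviate together (correlation -0.00932 for 5mC, -0.0150 for log2 coverage), so the numbers were not taken as pairs. With the replicate block 1349 and 24958 bins differed in coverage, and 192 and 2 in 5mC. The 5 named bins kept their direction in each alternative, and chr17:29067601-29067800 lost its call at 10 counts (edgeR adjusted p = 0.0665). Depth limits the shared comparison to 14551 bins, with 1489 at 60 counts.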
